A study of Mus musculus with 8 samples.

Results

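The genes of the neurotrophic ligands Bdnf, Ntf3, Gdnf and Cntf, of the receptors Ntrk2, Ntrk3 and Ngfr, and of the secreted neuropeptide precursor Vgf were followed across all 8 two-colour arrays of the series. Members were taken as every non-control probe that carries 1 of these 8 gene symbols. Of the 8 genes, 7 had a probe, and together they had 12 of the 41174 probes, on an array with 27962 gene names in all. No probe was listed under the symbol Vgf, which was not analysed here.

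The animals were male C57BL/6J mice of 8 to 12 weeks by the labels. Each mouse had either a permanent middle cerebral artery occlusion (PMCAO), made with a filament inside the vessel, or a sham operation. It then received an intracerebroventricular injection of 1 µl of saline or of saline with 1 pmol PACAP38, the 38-residue form of pituitary adenylate cyclase-activating polypeptide. The right (ipsilateral) hemisphere was taken 6 h or 24 h later, and RNA of 3 mice was pooled for each of the 8 groups. The groups were therefore sham saline, sham PACAP38, PMCAO saline and PMCAO PACAP38 at each time, with 1 pool per group. Each array held the PACAP38 pool and the saline pool of the same surgery and time, and a second array held the same RNA with the dyes exchanged. PMCAO mice were chosen by their neurological grade and sham mice at random, and the hemisphere held infarct core, its border and tissue outside the infarct. In such tissue fewer cells of a type and less RNA per cell cannot be told apart.

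Neurotrophins are secreted, dimeric growth factors that are cut from larger precursors. BDNF acts through TrkB, the product of Ntrk2, and the product of Ntf3 acts mainly through TrkC, the product of Ntrk3. Both receptors are made as a full-length form with a tyrosine kinase and as truncated forms without it, and truncated TrkB is the main form in astrocytes. Ngfr encodes the low-affinity receptor p75, which binds all mature neurotrophins and their precursors. GDNF signals through GFRα receptors and Ret, and CNTF through its own receptor with LIFR and gp130. Bdnf is a textbook activity-regulated gene of cortical and hippocampal neurons, and its transcription responds to calcium and to cyclic AMP. PACAP38 raises cyclic AMP through its receptor PAC1.

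The probes are 60 bases long, and their positions are those of build mm7 in the deposited files. The probes of both neurotrophins and of 2 receptors that lie in coding sequence are shown, since they show which stretch of each gene was read. They were not used to tell transcripts of these genes apart. The Bdnf probe A_51_P261991 lies at chr2:109574833-109574892 on the plus strand and reads into the mature BDNF sequence. The Ntf3 probe A_52_P525161 lies at chr6:126124692-126124751 on the minus strand. The Ntrk3 probe A_52_P55706 lies at chr7:74311423-74311482 on the minus strand, and the Ngfr probe A_51_P384968 at chr11:95683262-95683321 on the minus strand.
Bdnf A_51_P261991: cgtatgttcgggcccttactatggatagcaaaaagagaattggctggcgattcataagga
Ntf3 A_52_P525161: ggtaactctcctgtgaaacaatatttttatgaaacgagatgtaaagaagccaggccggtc
Ntrk3 A_52_P55706: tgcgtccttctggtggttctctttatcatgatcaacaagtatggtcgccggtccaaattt
Ngfr A_51_P384968: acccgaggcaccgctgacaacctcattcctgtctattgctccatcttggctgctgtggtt

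Ntrk2 had 3 probes that tell its transcripts apart, and the first 30 bases of the probe of each form are shown for that reason. A_51_P393454 at chr13:58224249-58224308 is described as transcript variant 1, which encodes full-length TrkB. A_51_P516012 at chr13:58026995-58027054 is described as transcript variant 2, the truncated form, and A_51_P516006 at chr13:58027055-58027112 follows it directly. The full-length probe starts 197.19 kb downstream of the truncated one. All 3 are on the plus strand.
Ntrk2 full length, A_51_P393454: tcaattgatacctatgtgcacgtgtgcaga
Ntrk2 truncated, A_51_P516012: gttcaaatatagaatcgaagtgaaatctca

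The other member probes were a second Bdnf probe, A_52_P384100, at chr2:109577100-109577159, a second Ngfr probe, A_52_P236448, at chr11:95677936-95677995, a Gdnf probe, A_51_P147777, at chr15:7663781-7663840, and 2 Cntf probes. The brighter Cntf probe, A_51_P378967, is placed at chr19:12443625-12443632. The other, A_52_P578538, spans chr19:12451160-12454936, and is described by the same RefSeq transcript as the brighter one. It is placed apart from that probe and its listing also names a different RefSeq transcript, so its values are uncertain as a reading of Cntf. Of the 12 probes, 9 were well above background in all 16 channels. Gdnf was so in 4 of 16 channels, the coding Ngfr probe in 11 and Ntf3 in 13.

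PACAP38 over saline is the log2 ratio on each array, turned so that a positive value means more in the PACAP38 pool. PMCAO over sham is the log2 difference between channels of the same dye on 2 arrays of the same slide, each channel scaled to its 75th percentile. Values are given for both arrays or both dyes. These 2 readings share their RNA, so they show technical spread and no spread between mice, and no test was possible within a comparison. A probe was called above 1.5-fold or below 0.75-fold in the mean. The saline and PACAP38 pools of a time point come from the same 4 arrays, so both kinds of comparison share channels and do not support each other independently. All 6 h arrays were on 1 slide and all 24 h arrays on another, so time and slide cannot be told apart.

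The array sham 6 h replicate 2 (PACAP38 in Cy3) stood apart from the rest. It had 10.7% outlier spots against 0.323% to 3.09% on the others, and its channels correlated at 0.877 and 0.873 with the median of the other channels of their dye and time, against 0.977 to 0.993 elsewhere. It enters every PMCAO over sham value at 6 h in 1 of the 2 dyes. The median distance between the Cy3 and Cy5 readings was 0.84 and 0.89 on the log2 scale at 6 h, and 0.15 and 0.17 at 24 h. PMCAO over sham at 6 h is therefore given with both dyes and without that array, which leaves 1 dye. Scaling the channels by the median of detected probes moved the median of all probes in this comparison at 6 h from -0.13 to -0.02 in saline and from -0.06 to 0.05 with PACAP38. The 2 arrays of a dye swap, turned alike, correlated over probes at -0.15 (sham 6 h), -0.14 (PMCAO 6 h), -0.42 (sham 24 h) and 0.05 (PMCAO 24 h). For PACAP38 over saline the mean of both arrays, in which a dye effect cancels, was therefore compared with the thresholds. Exceptions were sham 6 h without the array that stood apart, A_51_P516006 in PMCAO 6 h and the single-array alternatives. These rest on 1 array, where a dye effect does not cancel.

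Bdnf, the ligand of TrkB, was high in the ischemic hemisphere at 6 h and low at 24 h. On the level scale of probe A_51_P261991 (log2 signal minus log2 of the channel's 75th percentile), PMCAO saline at 6 h read 2.11 in Cy3 and 2.33 in Cy5, and PMCAO PACAP38 read 2.68 and 2.48. Sham saline at 6 h read 1.39 in Cy3 and 1.99 in Cy5, and sham PACAP38 read 1.82 and 1.03, the reading of 1.99 and that of 1.82 coming from the array that stood apart. Every PMCAO reading at 6 h lay above every sham reading of that time, with or without that array.

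**Figure D1:**
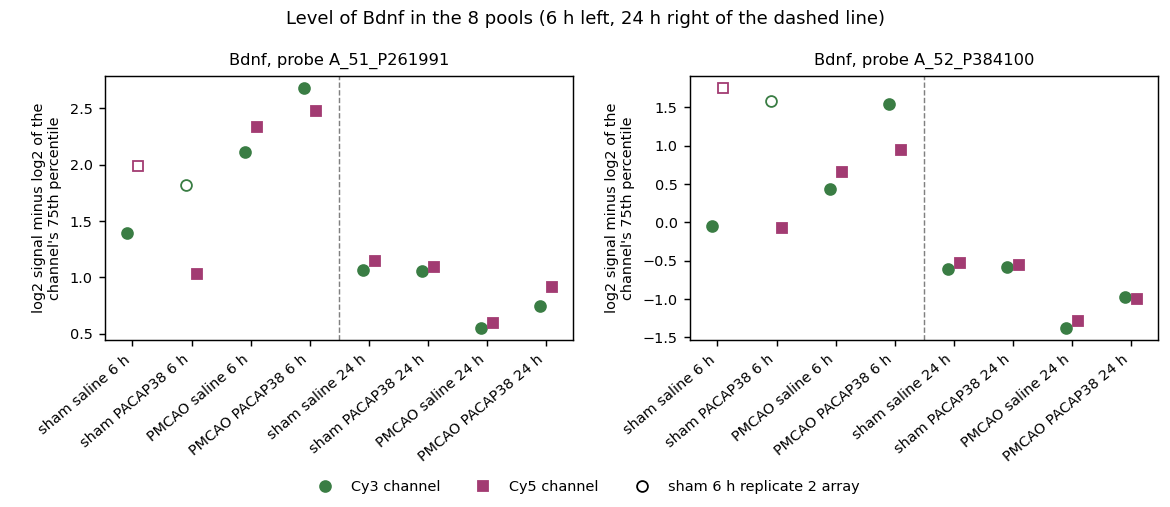
Level of the 2 Bdnf probes (y axis, log2 signal minus log2 of the channel's 75th percentile) in the 8 pools (x axis), with circles for Cy3 channels, squares for Cy5 channels and open symbols for the sham 6 h replicate 2 array. For A_51_P261991 the 4 readings of PMCAO at 6 h, 2.11 to 2.68, are above those of sham at 6 h, and the 4 readings of PMCAO at 24 h, 0.55 to 0.91, are below those of sham at 24 h; for A_52_P384100 the open symbols lie above the filled sham symbols at 6 h.

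At 24 h the order was turned. Sham saline read 1.06 and 1.15 and sham PACAP38 1.06 and 1.09, which overlap. PMCAO PACAP38 read 0.75 and 0.91, below both sham pools. PMCAO saline read 0.55 and 0.59 and was the lowest pool of that time.

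As a difference, PMCAO over sham for A_51_P261991 at 6 h was 0.72 in Cy3 and 0.34 in Cy5 in saline, with a mean of 0.53 (1.45-fold) that missed the threshold. With PACAP38 it was 0.86 in Cy3 and 1.45 in Cy5, with a mean of 1.15 (2.23-fold). These became 1.65-fold in saline and 2.73-fold with PACAP38 when the array that stood apart was left out, both past the threshold. At 24 h the mean was -0.53 in saline, past the threshold, and -0.24 with PACAP38.

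The second Bdnf probe, A_52_P384100, had the same order at 24 h. Its PMCAO over sham mean was -0.76 in saline and -0.42 with PACAP38, the latter a 0.75-fold value at the threshold itself. At 6 h its reading turned on the array that stood apart. In saline the mean was -0.30 with that array and 0.49 without it. With PACAP38 the mean was 0.49 with it and 1.01 (2.02-fold) without it.

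PACAP38 over saline for Bdnf was above 0 in PMCAO mice and near or below 0 in sham mice. For A_51_P261991 the 2 PMCAO arrays of 6 h read 0.35 and 0.34, and those of 24 h read 0.37 and 0.18. The 2 sham arrays of 6 h read -0.36 and -0.17, and those of 24 h read 0.02 and -0.08. For A_52_P384100 the PMCAO arrays of 6 h read 0.49 and 0.88, those of 24 h read 0.38 and 0.34, and the 4 sham arrays read -0.02, -0.18, 0.05 and -0.05. For both Bdnf probes all 4 PMCAO arrays lay above all 4 sham arrays.

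Such a separation was found for 1.8% of the 36121 probes measured on all arrays, and for 2 of the 11 member probes, both of them Bdnf. The reverse order, PMCAO arrays below sham arrays, was found for 0.897% of probes and for 0 member probes. Pair means below 0 in both sham pairs and above 0 in both PMCAO pairs were found for 3 of 11 member probes, both of Bdnf and full-length Ntrk2, and for 5.69% of all probes. The difference between the PMCAO and the sham means was 0.46 for A_51_P261991 and 0.57 for A_52_P384100. It was not tested, since each condition has 1 pool per time. The mean of A_52_P384100 at PMCAO 6 h, 0.69 (1.61-fold), was the only member value called up with PACAP38, and with normexp background correction and loess it was 0.58, no longer past the threshold. The same processing gave 0.34 and 0.23 for A_51_P261991 at 6 h and 24 h.

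**Figure D2:**
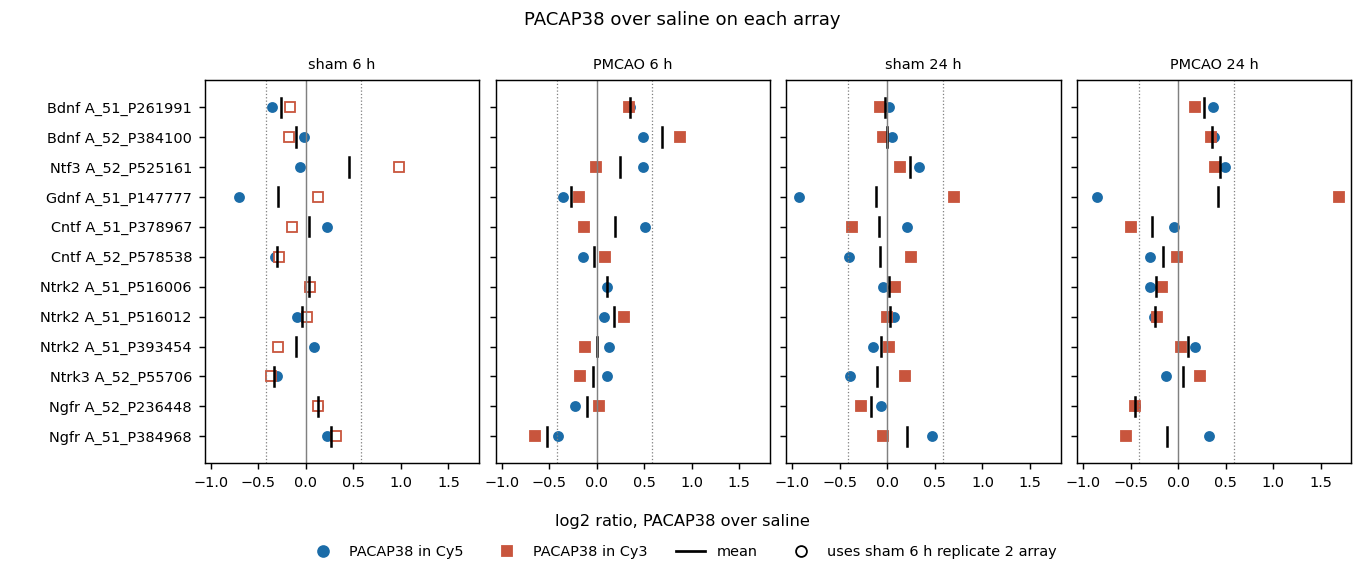
PACAP38 over saline (x axis, log2 ratio) for the 12 member probes (y axis) in the 4 comparisons, with a circle for the array with PACAP38 in Cy5, a square for the array with PACAP38 in Cy3, a bar for the mean, open symbols for the sham 6 h replicate 2 array and dotted lines at 1.5-fold and 0.75-fold. Both Bdnf rows lie right of 0 on all PMCAO arrays, from 0.18 to 0.88, and between -0.36 and 0.05 on sham arrays.

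Markers of other brain regions differed between these pools, although by the methods the olfactory bulb and the cerebellum were removed before the tissue was frozen. With PACAP38 over saline, 3 of 3 olfactory bulb markers (S100a5, Doc2g, Eomes) were past 1.5-fold both in sham 6 h, where Bdnf was below 0, and in PMCAO 6 h, where it was above 0. At PMCAO 24 h all 3 were below 0.75-fold. Doc2g, the marker of this list that was well above background in all 16 channels, read 1.96 and 0.64 in sham 6 h, the latter on the array that stood apart, and 0.56 and 0.64 in PMCAO 6 h. It read -0.15 and 0.29 in sham 24 h, and -1.88 and -1.47 in PMCAO 24 h. At PMCAO 6 h 3 of 4 cerebellar markers were past 1.5-fold and 3 of 5 dentate granule cell markers below 0.75-fold, against 5.41% and 6.9% of all probes. Of the cerebellar markers Neurod1 had a mean of 0.68 there, and Gabra6, not well above background in the saline pool, was at least 2.11-fold higher. The summed olfactory bulb level, in units of the 75th percentile, ranged from 0.295 to 1.84 over the 8 pools, that of dentate granule cells from 1.52 to 3.49, that of the cerebellum from 6.21 to 27.8 and that of 6 neuronal markers from 141 to 266. The highest dentate, cerebellar and neuronal sums were those of sham pools of 6 h, which include the array that stood apart. Olfactory bulb markers were well above background for 1 to 3 of 3 genes in a pool, dentate markers for 4 or 5 of 5 and cerebellar markers for 2 or 3 of 4, and no summed level was at 0. Of the neuronal markers 0 of 6 were called in any of the 4 PACAP38 comparisons, with medians from -0.13 to 0.05. The part of these differences in the Bdnf values was not tested.

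Ntf3, the ligand of TrkC, was dim. With PACAP38 over saline its mean was positive in all 4 comparisons, at 0.46 in sham 6 h, 0.24 in PMCAO 6 h, 0.23 in sham 24 h and 0.44 in PMCAO 24 h. The single arrays read -0.07 and 0.98 in sham 6 h, 0.49 and -0.0023 in PMCAO 6 h, 0.33 and 0.13 in sham 24 h, and 0.49 and 0.39 in PMCAO 24 h. The reading of 0.98 came from the array that stood apart, and without it sham 6 h was below 0. Over the 4 pairs of pools limma gave 0.34 ± 0.08 (SE), higher in 4 of 4 pairs, with an adjusted p of 0.860, and 0.21 without that array, higher in 3 of 4 pairs.

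PMCAO over sham for Ntf3 at 24 h was -0.47 and -0.60 in saline, with a mean of -0.54 that was past the threshold, and -0.34 with PACAP38. At 6 h the Cy3 and Cy5 readings in saline were -0.82 and 1.85, on opposite sides of 0, the latter from the array that stood apart. With that array left out Ntf3 was at -0.82 in saline and -0.26 with PACAP38, so that every remaining reading was below 0. At 6 h PMCAO saline, sham saline and sham PACAP38 were each well above background in 1 of 2 channels only. These 6 h values come from 1 dye of a dim probe and give no reliable size.

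Gdnf, a survival factor of dopaminergic and motor neurons, was near the detection limit. Where it was well above background in 1 of the 2 groups only, the bounds were at least 1.06-fold higher in PMCAO than in sham with PACAP38 at 6 h, and at least 1.09-fold at 24 h. The Cy3 and Cy5 differences behind the bound at 6 h had opposite signs, at -0.25 and 1.51. With PACAP38 over saline it was at least 1.03-fold lower in sham 6 h and at least 1.099-fold higher in PMCAO 24 h. The 2 arrays differed in sign in both, at -0.70 and 0.12 in sham 6 h and at -0.85 and 1.69 in PMCAO 24 h. A bound whose readings differ in sign gives no settled direction. In saline at 24 h neither the PMCAO nor the sham pool was well above background, and in saline at 6 h each was so in 1 of 2 channels. The measured Gdnf values enter the counts of member probes below, but give no size.

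Cntf, a cytokine of astrocytes and Schwann cells, was read by A_51_P378967. At 24 h PMCAO over sham was 0.36 and 0.51 in saline, with a mean of 0.43, and 0.38 and 0.09 with PACAP38, with a mean of 0.23. At 6 h it was -0.91 in saline and -0.75 with PACAP38, both past the threshold, and -0.41 and -0.10 without the array that stood apart, neither past it. With PACAP38 over saline the 2 arrays differed in sign in sham 6 h, PMCAO 6 h and sham 24 h, and both were below 0 in PMCAO 24 h, at -0.05 and -0.49. The uncertain probe A_52_P578538 had means from -0.31 to -0.03 with PACAP38 over saline.

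The receptor gene Ntrk2 differed between its transcripts at 24 h in saline. In saline, PMCAO over sham for the full-length probe was -0.39 in Cy3 and -0.50 in Cy5, a mean of -0.44 (0.735-fold) that was past the threshold. The truncated probe A_51_P516012 was at 0.21 and 0.09, a mean of 0.15, and its neighbour A_51_P516006 had a mean of 0.17. The full-length minus truncated difference was -0.60 with the one truncated probe and -0.61 with the other, larger than the distance between the 2 dyes of either form. With PACAP38 the same difference was -0.15 and -0.19, smaller than the distance between the 2 dyes of the full-length probe there, at -0.50 and -0.08.

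At 24 h the level of truncated TrkB by A_51_P516012 was highest in PMCAO saline, at 3.71 in Cy3 and 3.65 in Cy5, and lowest in PMCAO PACAP38, at 3.41 and 3.45. The sham pools lay between them, at 3.51 and 3.56 in saline and at 3.54 and 3.59 with PACAP38, and these overlap. Full-length TrkB was at 2.44 and 2.50 in sham saline and at 2.50 and 2.31 in sham PACAP38. It was at 2.06 and 1.99 in PMCAO saline and at 2.00 and 2.23 in PMCAO PACAP38, below both sham pools in every reading.

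With PACAP38 over saline at PMCAO 24 h the truncated probe read -0.26 and -0.22, each the mean of 10 spots with an SD between spots of 0.016 and 0.022, and its neighbour had a mean of -0.23. The full-length probe read 0.18 and 0.03 on the same arrays. The difference between the 2 forms was 0.35. In the other 3 comparisons the 2 forms differed by -0.06 in sham 6 h, -0.18 in PMCAO 6 h and -0.10 in sham 24 h. No Ntrk2 probe was past a threshold with PACAP38 over saline. The 2 truncated probes differed by 0.08 or less in all 4 of these comparisons.

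At 6 h the truncated TrkB values depended on the array that stood apart. That array had 1 of 10 spots of A_51_P516012 left after outliers were removed, and PMCAO over sham was -0.97 in saline and -0.74 with PACAP38. Without it the values were 0.02 and 0.20, and the neighbouring probe gave 0.04 and 0.13. Full-length TrkB at 6 h was 0.47 in saline and 0.58 with PACAP38, and 0.29 and 0.34 without that array.

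Markers of astrocytes, which make truncated TrkB and Cntf, differed between the same pools. For PMCAO over sham at 24 h 2 of 5 were past 1.5-fold in saline and with PACAP38, against 9.56% and 6.39% of all probes. Gfap, the intermediate filament of reactive astrocytes, was at 1.13 in saline and 0.95 with PACAP38. Aldh1l1 was at 5.57 and 5.27, with each sham pool well above background in 1 of 2 channels only. The water channel Aqp4 was at -0.31 and -0.40, and the list medians were 0.21 and 0.04. At 6 h 3 of 5 were below 0.75-fold in both conditions, against 34.9% and 30.6% of all probes. Without the array that stood apart 0 of the 4 measured were below it, against 16.9% and 10.2%. Aqp4, at 0.67 with PACAP38, was then past 1.5-fold. None of the 5 was called in any of the 4 PACAP38 comparisons. The summed astrocyte level ranged from 30.95 to 145 over the 8 pools, with 4 or 5 of 5 genes well above background. It was 142 in sham saline and 38.4 in PMCAO saline at 6 h, and 31.5 and 41.3 at 24 h. The sham sums of 6 h include the array that stood apart and are not given without it. Slc1a3, at -2.30 in saline and -2.61 with PACAP38 for PMCAO over sham at 6 h, had a sham value of 6 h on that array only. The part of these differences in the Ntrk2 and Cntf values was not tested.

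**Figure D3:**
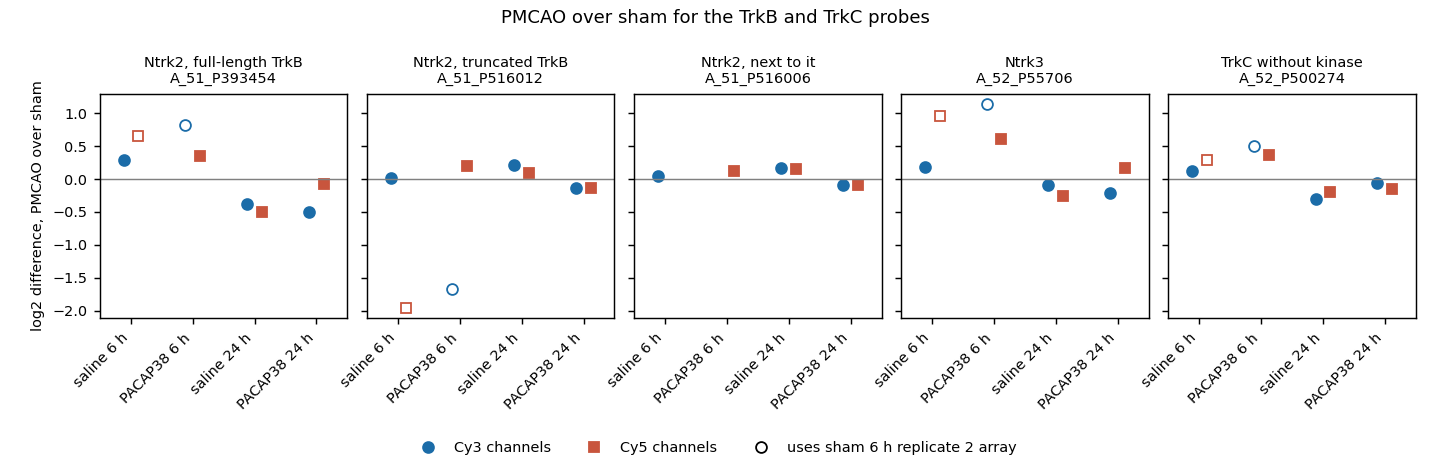
PMCAO over sham (y axis, log2 difference) for the 3 Ntrk2 probes, the Ntrk3 probe and a probe described as TrkC without the kinase, in the 4 conditions (x axis), with circles for Cy3, squares for Cy5 and open symbols where the sham 6 h replicate 2 array enters. At 24 h in saline the full-length TrkB readings are at -0.39 and -0.50 and those of truncated TrkB at 0.21 and 0.09; the open symbols of truncated TrkB lie below -1.5.

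Ntrk3, the receptor of the Ntf3 product, was read by a probe in the membrane-spanning part of its coding sequence. The probe is described as transcript variant 2 and was not used to tell the forms of TrkC apart. PMCAO over sham at 6 h was 0.19 and 0.95 in saline, with a mean of 0.57, and 1.14 and 0.61 with PACAP38, with a mean of 0.88 (1.84-fold). Leaving out the array that stood apart gave 0.19 and 0.61, the latter still past the threshold. At 24 h the means were -0.17 and -0.03. PACAP38 over saline was -0.30 and -0.37 in sham 6 h, just inside the threshold, and the means of the other comparisons lay between -0.11 and 0.05. The probe A_52_P500274, not listed under the symbol and described as a TrkC isoform without the kinase, had PMCAO over sham means of 0.20 and 0.44 at 6 h and -0.25 and -0.11 at 24 h.

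Ngfr, the p75 receptor, was lower with PACAP38 in PMCAO mice at 24 h. Its brighter probe A_52_P236448 read -0.46 on each of the 2 arrays (0.728-fold), with SDs between spots of 0.039 and 0.034, and the value was -0.47 with normexp and loess. In sham 24 h it read -0.06 and -0.28, in PMCAO 6 h -0.23 and 0.03, and in sham 6 h 0.13 on each array. Its levels at 24 h were -0.04 and -0.03 in PMCAO saline, which was the highest pool. They were -0.44 and -0.36 in sham saline, -0.65 and -0.50 in sham PACAP38 and -0.51 and -0.51 in PMCAO PACAP38, the readings of both PACAP38 pools overlapping. PMCAO over sham at 24 h was accordingly 0.36 in saline and 0.06 with PACAP38, neither past the threshold.

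The coding Ngfr probe A_51_P384968 was dim at 24 h and did not repeat this value, with arrays at 0.33 and -0.55. At PMCAO 6 h it read -0.41 and -0.65 with PACAP38, a mean of -0.53 (0.694-fold) past the threshold, which was -0.14 with normexp and loess, while the brighter probe had a mean of -0.10. PMCAO over sham at 6 h was 1.33 in saline and 0.55 with PACAP38 for the coding probe, against 0.45 and 0.22 for the brighter one. The 2 Ngfr probes thus disagreed in size at 6 h. At PMCAO 24 h, where the brighter Ngfr probe and truncated TrkB were lower with PACAP38, 2 of 4 oligodendrocyte markers and 2 of 3 endothelial markers were also below 0.75-fold. So were 1 of 4 microglial, 0 of 5 astrocyte and 0 of 6 neuronal markers, and 8.18% of all probes. Summed oligodendrocyte markers ranged from 113 to 308 over the pools, and were 156 in PMCAO saline and 113 in PMCAO PACAP38 at 24 h. The 308 was that of sham saline at 6 h, which includes the array that stood apart. Summed endothelial markers ranged from 7.32 to 11.03, and were 10.9 and 7.93 in those 2 pools. None of the oligodendrocyte and endothelial markers was at background in any pool, and their part in the Ngfr and Ntrk2 values was not tested.

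Counted over all member probes, PACAP38 over saline called 0 of 12 in sham 6 h, where 3.98% of all probes were up and 7.48% down. With the array that stood apart left out it called 1 there, Gdnf down, which was not well above background in that PACAP38 pool, against 6.67% up and 10.3% down. In PMCAO 6 h it called 1 up and 1 down, against 5.41% and 6.9% of all probes. In sham 24 h it called 0, against 1.75% and 3.87%, and in PMCAO 24 h 1 down and 0 up, against 8.18% and 2.99%. With so few probes these shares were not set apart from those of all probes.

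For PMCAO over sham at 24 h in saline, 4 of 12 member probes were down and 0 up, where 13.3% of all probes were down and 9.56% up. They were both Bdnf probes, Ntf3 and full-length Ntrk2. With PACAP38 1 was down, the second Bdnf probe, and 0 up, against 8.19% and 6.39%. The same 4 probes had all 4 same-dye differences at 24 h below 0, as had 22.1% of all probes. All 4 were above 0 for 1 of 12, the brighter Cntf probe, and for 25.0% of all probes.

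At 6 h in saline 2 member probes were up and 3 down, against 19.5% and 34.9% of all probes. With PACAP38 3 were up and 2 down, against 17.0% and 30.6%. Without the array that stood apart the counts were 3 up and 1 down in saline, against 17.2% and 16.9%, and 4 up and 0 down with PACAP38, against 17.9% and 10.2%. Gdnf, near the detection limit, was 1 of those up in each of these 4 counts.

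**Figure D4:**
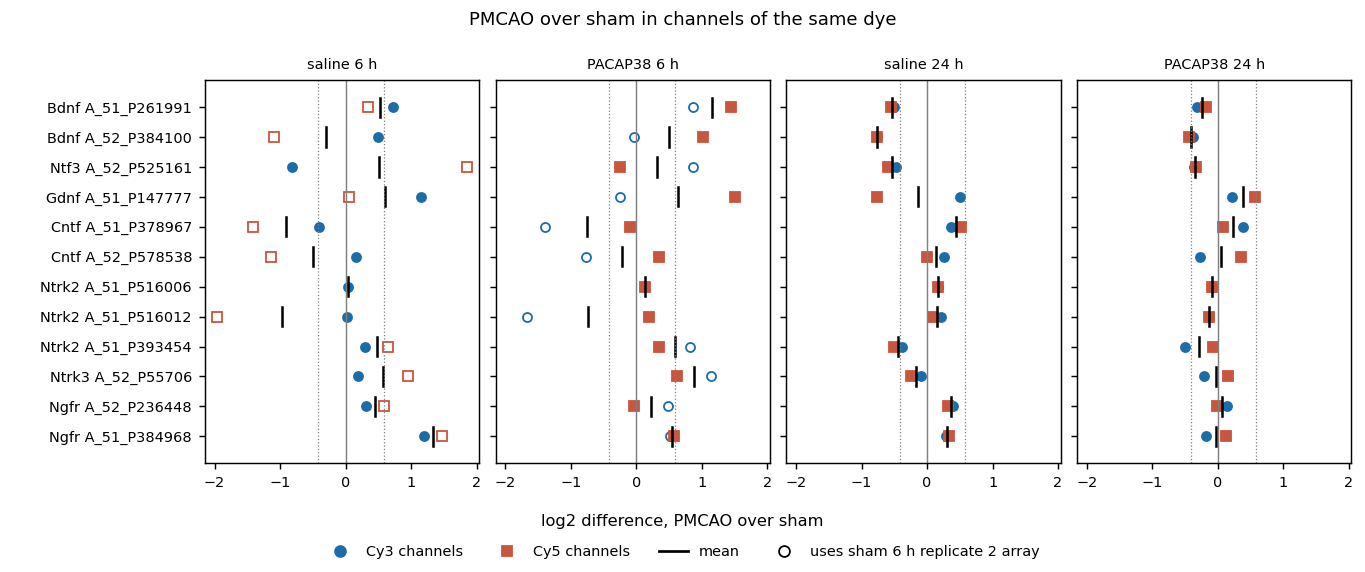
PMCAO over sham (x axis, log2 difference) for the 12 member probes (y axis) in saline and PACAP38 at 6 h and 24 h, with circles for Cy3, squares for Cy5, a bar for the mean, open symbols where the sham 6 h replicate 2 array enters and dotted lines at 1.5-fold and 0.75-fold. The 2 dyes lie close together at 24 h and far apart at 6 h, as for truncated Ntrk2 in saline, where the mean is -0.97 and the reading without that array 0.02.

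Across the 4 pairs of pools limma called 0 of 36121 probes for PACAP38 over saline at an adjusted p of 0.05 (0.0%), with 1583 probes at an unadjusted p under 0.05 and a smallest adjusted p of 0.860. No member was called. For the mean of PMCAO over sham it called 14951 probes (41.4%), 16.5% up and 24.9% down, and among the members Ntrk3 (0.31, adjusted p = 0.016) and the brighter Ngfr probe (0.27, adjusted p = 0.035) up, and Cntf (-0.25, adjusted p = 0.033) and truncated Ntrk2 (-0.42, adjusted p = 0.0055) down. Leaving that array out left 547 probes (1.36%, or 1.1% up and 0.264% down) and 0 members called, and the Cntf and truncated Ntrk2 values turned to 0.04 and 0.06. The 2 differences of a time point share their arrays, so these p-values are too small.

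The limma term for time, 24 h minus 6 h, was called for 32.6% of all probes, 21.9% up and 10.7% down, and for 5 of the 11 member probes tested. Bdnf was at -1.23 ± 0.22 (SE, adjusted p = 0.0089), full-length Ntrk2 at -0.89 ± 0.11 (adjusted p = 0.0030) and Ntrk3 at -0.82 ± 0.14 (adjusted p = 0.0085). Cntf was at 1.17 ± 0.14 (adjusted p = 0.0029) and truncated Ntrk2 at 0.86 ± 0.14 (adjusted p = 0.0069). Without the array that stood apart 0.197% of probes were called, 0.0746% up and 0.122% down, and 0 members. The estimates were then -1.47 for Bdnf (adjusted p = 0.146), -0.68 for full-length Ntrk2 (adjusted p = 0.122), -0.50 for Ntrk3 (adjusted p = 0.280), 0.59 for Cntf (adjusted p = 0.223) and -0.10 for truncated Ntrk2, so that the first 4 kept their sign. The second Bdnf probe was at -0.69 (adjusted p = 0.101), and at -1.34 (adjusted p = 0.137) without that array.

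Of 26 further genes of the neurotrophin system, 23 had a probe. With PACAP38 over saline 0 were called in either 24 h comparison. At 6 h 1 was up in sham and 2 were down in PMCAO mice, against 3.98% and 6.9% of all probes. The list medians were 0.04, -0.10, -0.01 and 0.05 in the 4 comparisons, with the median of all probes at 0.0. For PMCAO over sham at 24 h 1 was up and 4 down in saline, against 9.56% and 13.3% of all probes. With PACAP38 0 were up and 1 down, against 6.39% and 8.19%. The adaptor Shc1 was the highest, at 0.81 and 0.48, and its neuronal relative Shc3 the lowest, at -0.78 and -0.62. At 6 h 4 were up and 9 down in saline, against 19.5% and 34.9% of all probes. With PACAP38 2 were up and 9 down, against 17.0% and 30.6%. When the array that stood apart was left out 5 were up and 2 down in saline, against 17.2% and 16.9%. With PACAP38 they were then 2 up and 2 down, against 17.9% and 10.2%. Sort1, the sortilin co-receptor of p75 for precursor neurotrophins, went from -1.99 and -2.05 to -0.52 and -0.42. The limma mean of PMCAO over sham called 2 of the 19 genes tested up and 6 down, against 16.5% and 24.9% of all probes. Without that array it called 0, against 1.1% up and 0.264% down.

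Of the 9 genes of the GDNF family, 0 were up and 1 down over the 4 PACAP38 comparisons. That was Artn at PMCAO 24 h, where 8.18% of all probes were down. Artn, the ligand artemin, was well above background in 2 of 16 channels only and in neither of those 2 pools, so it has no size. The receptor kinase Ret was so in 0 of 16. Of the 5 measured genes around the CNTF receptor, Clcf1, a cytokine that uses the same receptor, was the highest at 24 h, at 1.65 in saline and 1.87 with PACAP38, with each sham pool well above background in 1 of 2 channels, and Lifr was at 0.75 and 0.37. Clcf1 was below 0.75-fold with PACAP38 over saline at 24 h, at -0.75 in sham and -0.52 in PMCAO mice.

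The 14 genes of the regulated secretory pathway include the enzymes that cut neurotrophin and Vgf precursors. Pcsk1, the prohormone convertase that is itself activity-regulated, was at 0.54 with PACAP38 over saline in PMCAO 6 h, the highest of the list and below the threshold. PMCAO over sham for Pcsk1 at 6 h was 0.42 in saline and 0.97 with PACAP38, and 1.12 and 1.37 without the array that stood apart, and at 24 h it was -0.63 and -0.54. These values stand beside those of Bdnf, which was also high at 6 h and low at 24 h. Plat, the tissue plasminogen activator that takes part in the cutting of BDNF precursor, was at 1.23 in saline and 0.52 with PACAP38 at 24 h. It was at -0.64 with PACAP38 over saline in PMCAO 24 h, where 1 of the 14 genes was down, against 8.18% of all probes. The secretogranin Scg2 was at 1.00 and 1.24 at 6 h, and at 0.58 and 0.55 without that array.

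The genes whose levels ran most like a member over the 8 pools, after the mean of each time was subtracted, were found among 22098 probes well above background in all channels. For Bdnf they were Caspr5-1, Kcnj9 and Gnal, with Pearson correlations of 0.990 to 0.991. For Ntrk3 they were Dhx16, Ppm1h and Evc (0.987 to 0.994), and for Ngfr Trpv4, Pnmt and Kcnq1 (0.978 to 0.982). For Cntf they were LOC665756, Cln8 and Fbl (0.994 to 0.995), and for Ntrk2 by A_51_P516006 AW551984, Taldo1 and Dgcr2 (0.997 to 0.998). These correlations describe 8 pools only, and both sham pools of 6 h include the array that stood apart. On that array A_51_P516006 read 6.69 and 6.73, against 4.29 to 4.75 in its other channels. Cntf read 0.95 and 0.80 there, against -1.31 to -0.42 in its other channels. Both PMCAO pools of 6 h had 1 channel for A_51_P516006. The part of that array in these correlations was not tested.

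Since PACAP38 signals through cyclic AMP, the promoters of the members were searched for the cyclic AMP response element (CRE) TGACGTCA and its core TGACG, on both strands, the core being contained in the element. The windows run from 250 bases before to 50 bases after each start in the RefSeq table of build GRCm38.p6, which held 14 promoters of 6 of the 8 genes. The whole element was in 0 of the 14 and in 1.79% of 32851 promoters. The core was in 2 of the 14, against 20.8% of all promoters. They were 1 of 7 Bdnf promoters, in the window chr2:109692186-109692485, with the match beginning 35 bases before the start, and 1 of 2 Gdnf promoters, in the window chr15:7809798-7810097, with the match beginning 50 bases before the start. Both are on the plus strand and hold the core on the opposite strand, so the capitals below show its reverse complement.
Bdnf: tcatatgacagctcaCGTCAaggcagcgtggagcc
Gdnf: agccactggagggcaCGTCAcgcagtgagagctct
These letters are a description of the windows and no evidence of binding, and the Bdnf probes do not tell transcripts of its 7 starts apart.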

How the data were processed

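RNA of 8 pools was labelled with Cy3 and Cy5 and hybridised to 8 Agilent mouse arrays. The authors extracted the scans with Agilent Feature Extraction (9.5.3.1 in the submitters' processing notes, 9.5.1.1 in the file headers of 6 h). In the deposited log10 ratio Cy5 stands over Cy3, with background removed, trends corrected and dyes balanced by that software, and the deposited intensity columns hold raw and processed signals. The deposited flags were used to leave out outlier spots. The authors also deposited a table with the ratio of Cy5 over Cy3, given on dye-swapped arrays as a score, the same ratio with a minus sign before it. It was used as an alternative. Second copies of 3 arrays were identical, and 0 columns of other samples were left out.

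Log10 ratios were turned to log2 PACAP38 over saline, spots of a probe were averaged per array, and then the 2 arrays. Processed signals were scaled to the 75th percentile for PMCAO over sham. Brightness represented a gene with several probes, and all probes were given. The 2 arrays of a comparison were 1 replicate. limma 3.58.1 in R 4.3.3 tested 4 pairs of pools (3 residual degrees of freedom for PACAP38 over saline, 2 for PMCAO over sham with a time term) with Benjamini-Hochberg adjustment at 0.05, and was tested on simulated data. For PACAP38 over saline its p-values measure the spread between the 4 pairs of pools. For PMCAO over sham they rest on how far the saline and PACAP38 differences of a time lie apart. Those differences share their arrays, so an error common to both does not count as spread and these p-values are too small. The number of arrays limits the precision. Genes named from the lists were those called by limma, otherwise the highest and lowest of a list, and some others singled out after their values were seen. Some genes of these lists are not reported here. The members and lists were chosen with earlier results of these data known. Alternatives were other background corrections, scalings, thresholds and filters, single arrays or dyes, left-out pairs and outlier spots kept. Leaving out the sham 6 h replicate 2 array was added after seeing the data. Genes named as most alike had the highest Pearson correlation over pools. Promoters came from RefSeq, and figures from matplotlib 3.10.9 in Python 3.11.15.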

Additional observations from a re-analysis of the deposited data

Results flagged for a closer look

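PACAP38 over saline had opposite signs in sham and PMCAO mice, or at 6 h and 24 h, for 5 of the 12 member probes, and none of these differences was tested. PMCAO minus sham was 0.46 for Bdnf by A_51_P261991, 0.57 for Bdnf by A_52_P384100, 0.14 for full-length Ntrk2 by A_51_P393454 and -0.56 for the coding Ngfr probe A_51_P384968. The 24 h minus 6 h difference was -0.29 for Cntf. Below 0 in both sham pairs and above 0 in both PMCAO pairs were 5.69% of all probes. That share covers the Bdnf and Ntrk2 probes only. Shares of all probes were not counted for the order of the coding Ngfr probe or for opposite signs at 6 h and 24 h. The count of 5 is therefore not set apart from that of all probes.

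PMCAO over sham differed between 24 h and 6 h by limma at an adjusted p under 0.05 for Bdnf (-1.23), Ntrk3 (-0.82), full-length Ntrk2 by A_51_P393454 (-0.89), truncated Ntrk2 by A_51_P516012 (0.86) and Cntf (1.17). None of the 5 was called without the sham 6 h replicate 2 array, and time cannot be told apart from slide.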

How the results depend on the processing

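Of 581 alternative values of member probes without a test, 68 turned their sign, 8 of them from a value past the threshold and 60 from one that was not. Of those 60, 51 moved by less than the spread between arrays and 9 by more. A further 461 kept their sign and moved by less than that spread. Where an alternative leaves a single array or dye, the move is always smaller than the spread between both readings. For such alternatives a move below the spread was fixed in advance and shows no stability. Of 365 alternative limma values of members, 270 kept their direction and side of the threshold, 37 lost and 24 gained a call, and 34 turned, 31 of them called neither before nor after. The cause of these moves was not tested, beyond fewer probes or arrays where an alternative drops them.

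For PACAP38 over saline (sham 6 h, PMCAO 6 h, sham 24 h, PMCAO 24 h) 4203, 4897, 2313 and 4598 probes were past the threshold. With normexp and loess there were 40, 109, 77 and 1216, and with a filter on dim probes 1029, 2540, 465 and 2392. From single arrays there were 6445 to 6896, 6929 to 9682, 5844 to 6630 and 6901 to 8088, and in sham 6 h without its replicate 2 array 6896. Member probes past the threshold were 1 on either array of sham 6 h and of sham 24 h, 0 with 1 array or normexp in PMCAO 6 h, and 2 to 4 on single arrays and 0 at a threshold of 0.5 in PMCAO 24 h.

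For PMCAO over sham (saline 6 h, PACAP38 6 h, saline 24 h, PACAP38 24 h) 19646, 17189, 9414 and 6001 probes were past the threshold, and 9453, 8664, 2355 and 933 with normexp, loess and Aquantile. With PACAP38 at 6 h there were 11284 without the Cy3 channels, which is also without the sham 6 h replicate 2 array. Member probes in saline 6 h were 9 without the Cy3 channels and 10 with outlier spots kept, and in PACAP38 6 h 8 with scaling by detected probes and 9 with outlier spots kept. At 24 h they were 2 (saline) and 0 (PACAP38) with Aquantile, and 0 (PACAP38) at a threshold of 0.5. Limma called 14951 probes for the mean, 0 from either dye alone, 1 with no time term, 547 without that array and 11567 to 16137 without 1 pair of pools. For the time term it called 11770, 0 from either dye, 79 without that array and 9594 to 13406 without 1 pair. Without 1 pair the limma mean of Cntf lay between -0.30 and -0.20 and that of truncated Ntrk2 between -0.49 and -0.35, with a time term of 0.72 to 1.00. The sham 6 h replicate 2 array enters both 6 h pairs, so every fit without 1 pair still held it. These ranges therefore cannot show how far the values depend on that array.

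Values past the threshold that turned at 6 h were Cntf A_52_P578538 in saline (0.16 in Cy3 or without that array), truncated Ntrk2 A_51_P516012 in saline (0.023 likewise) and with PACAP38 (0.0013 with Aquantile, 0.20 in Cy5 or without that array), and Gdnf with PACAP38 (-0.25 in Cy3). By limma without that array the called values that turned were Cntf (0.040) and truncated Ntrk2 (0.059 for the mean, -0.10 for the time term). Uncalled means of PMCAO over sham that turned without it were those of Bdnf A_52_P384100 (0.081), Cntf A_52_P578538 (0.17) and full-length Ntrk2 (-0.024), and uncalled time terms those of Ntf3 (0.097), Cntf A_52_P578538 (-0.16) and the brighter Ngfr probe (0.077). With single arrays or pairs left out, these means ranged from -0.44 to 0.081 (Bdnf), -0.20 to 0.17 (Cntf) and -0.024 to 0.12 (Ntrk2), and these time terms from -0.95 to 0.097 (Ntf3), -0.16 to 0.58 (Cntf) and -0.27 to 0.077 (Ngfr). The Ntf3 mean, at -0.014, was 0.016 with Aquantile, 0.031 with detected probes, 0.17 without the Cy3 channels, 0.17 with outlier spots kept and up to 0.038 without 1 pair, and Cntf A_52_P578538 was 0.054 with outlier spots kept. Uncalled PACAP38 over saline means that turned with arrays or pairs left out ranged from -0.0082 to 0.20 (Bdnf), -0.71 to 0.58 (Gdnf, 0.0041 with normexp and loess), -0.29 to 0.22 (Cntf), -0.30 to 0.012 (Cntf A_52_P578538), -0.083 to 0.057 (truncated Ntrk2), -0.092 to 0.062 (full-length Ntrk2) and -0.23 to 0.15 (coding Ngfr). No paired analysis was possible because a replicate number marks the dye orientation of the same RNA, with 1 pool per group.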
